A study of Mus musculus with 8 samples.

Results

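The genes examined are 37 genes of antioxidant defence and NADPH supply, chosen by name from the mouse genes on a 1-colour Agilent expression array. All 37 were on the array, through 53 probes, and 35 genes (47 probes) were compared, since they stood well above background in every sample of 1 or both groups. In all, 13824 genes met that filter. The 37 fall into 2 regulators, 6 targets of the regulator NRF2, 9 genes of the glutathione system, 11 of the thioredoxin and peroxiredoxin system, 4 dismutases and catalase, and 5 enzymes of NADPH supply and the pentose phosphate pathway. They were listed by function, with earlier results of these data known.

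RNA came from C2C12, a line of mouse muscle precursor cells, collected as fused myotubes on day 4 of differentiation. There were 4 samples transfected with macroH2A1.1 siRNA and 4 transfected with control siRNA, described by the submitters as biological replicates. The histone variant macroH2A1 is spliced into more than one form, of which macroH2A1.1 can bind ADP-ribose, a product of NAD+ use, and the study asks about its part in nuclear NAD+ use and mitochondrial respiration. A label of the knockdown samples calls them a knockout, whereas their titles and the study design name an siRNA, so they are treated here as a knockdown. C2C12 is a single established line in culture, and how the replicate cultures were made is not stated, so the p-values cover no more than the spread seen among these 8 samples. In RNA from whole cultures, fewer cells of a type and less RNA per cell cannot be told apart.

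Cells remove hydrogen peroxide and lipid peroxides mainly through a pair of thiol systems, glutathione with its peroxidases and thioredoxin with the peroxiredoxins, and both are recharged with electrons from NADPH. Superoxide dismutases feed these systems by turning superoxide into hydrogen peroxide, and the pentose phosphate pathway and malic enzyme supply much of the cytosolic NADPH. The transcription factor NRF2, encoded by Nfe2l2, is held down by its adaptor KEAP1 and, once released, binds antioxidant response elements in the promoters of many of these genes. In skeletal muscle these enzymes handle the oxidants made by mitochondria and by NADPH oxidases.

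The 8 arrays lay on 1 slide and were scanned in 1 run, with 46.9% to 49.8% of 59305 spots well above background and no saturated spot. Pairwise correlations between arrays lay between 0.964 and 0.992. Values below are log2 signals relative to each array's 75th percentile, so 0 is that percentile, and 1 unit is a doubling. They compare arrays for 1 probe and give no order between genes. Macroh2a1 read 0.48, 0.64, 0.38 and 0.78 in the macroH2A1.1 siRNA samples, against 1.55, 1.57, 1.62 and 1.504 in the control siRNA samples. The groups did not overlap, and the difference was -0.99 (SE 0.10, limma adjusted p = 0.040, or 0.014 with the replicate number as a block). Without pairing this call did not hold in 7 of the 8 fits that left out 1 array (adjusted p 0.10 to 0.25); it held without macroH2A1.1 siRNA replicate 4 (0.024). Tested over 24989 probes, the probe whose listed transcripts were 2 of the gene's 4 read -1.42 (limma adjusted p = 0.14, or 0.033 with the block). On that scale the probe that stands for the gene had a limma adjusted p of 0.054, or 0.023 with the block. Another Macroh2a1 probe read -1.11 with the same rounded adjusted p. Samples with the same replicate number deviated together from their group means, with correlations of 0.61, 0.55, 0.66 and 0.41, so the comparison was also made within replicate numbers. Arrays of the same number also sat side by side on the slide, so shared culture and shared place cannot be told apart. In each pair the control siRNA array lay in slide column 1 or 3 and the macroH2A1.1 siRNA array in column 2 or 4. Group and slide column therefore cannot be told apart either.

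One array stood apart. In macroH2A1.1 siRNA replicate 2, spots in rows 2 to 65 and columns 144 to 164 included 95 that were at least 8-fold under the other 7 arrays, against 0 to 11 such spots anywhere on each other array. In the same array, 202 spots had raw signal under their own local background, against 0 to 12 elsewhere. Along the first principal component this array stood at 60.3 and the others between -27.5 and 8.02. With the 259 genes of the dark corner left out it stood at 34.4, beside 29.6 for control siRNA replicate 2, and the others lay between -26.4 and 3.56. Of the antioxidant and NADPH probes, the Nqo1 probe alone lay in that corner, and its value is given below with and without that spot.

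The antioxidant response element is the sequence through which NRF2 acts, so the promoters of the genes were searched for its core before the expression values are described. RefSeq promoter windows (GRCm38.p6, 250 bases before to 50 after each start) were found for 32 of the 37 genes, in 43 windows, and were not found for Hmox1, Gclc, Gsr, Prdx6 and Sod3. The core TGACNNNGC, read on both strands, was in 9 of the 43 windows, 1 for each of 9 genes. Of all 32851 promoter windows 12.4% held it, and of all 27025 genes with a window 14.0% did. The 7 cores that begin before the start are shown with 10 bases on either side, with the core in capitals and each written on the strand on which the core reads 5′ to 3′. A match to these letters is a description and not a site of NRF2 binding.
Nfe2l2: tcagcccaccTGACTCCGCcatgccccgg
Gclm: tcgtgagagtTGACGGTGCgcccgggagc
Prdx1: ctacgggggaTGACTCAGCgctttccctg
Txnrd1: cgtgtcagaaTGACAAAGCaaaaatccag
Sod1: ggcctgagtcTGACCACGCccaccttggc
G6pdx: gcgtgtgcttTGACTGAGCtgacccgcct
Me1: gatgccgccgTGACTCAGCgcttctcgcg

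In the order shown, the windows lie at chr2:75704885-75704913 on the minus strand, chr3:122245413-122245441 on the minus strand, chr4:116685456-116685484 on the minus strand, chr10:82859104-82859132 on the minus strand, chr16:90220696-90220724 on the minus strand, chrX:74428919-74428947 on the plus strand and chr9:86695902-86695930 on the minus strand (GRCm38.p6). The farthest upstream base of each core, on either strand, lies 240, 134, 133, 92, 56, 57 and 6 bases before the start of transcription. The same letters TGACTCAGC occur in the Prdx1 and Me1 promoters. The Me1 core runs across the start, and the Srxn1 and Pgd cores are not shown.

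The second sequence shown belongs to Txnip, the inhibitor of thioredoxin, whose transcript was lower after the knockdown in all 4 pairs. Txnip is known for induction by glucose through carbohydrate response elements, which are built of paired E-box-like letters such as CACGAG. The 250 bases before its start, at chr3:96557707-96557956 on the plus strand (GRCm38.p6), are given with CACGAG in capitals.
Txnip: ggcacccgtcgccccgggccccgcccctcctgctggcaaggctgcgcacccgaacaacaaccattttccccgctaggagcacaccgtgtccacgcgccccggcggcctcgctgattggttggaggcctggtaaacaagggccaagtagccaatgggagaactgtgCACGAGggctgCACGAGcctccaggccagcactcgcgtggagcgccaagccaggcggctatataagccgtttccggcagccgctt

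CACGAG occurred 2 times, beginning 85 and 74 bases before the start, and no antioxidant response core was in the window. The CACGAG letters were chosen after this sequence had been viewed. They were in 6.47% of all promoter windows and in 4 of the 43 windows of the genes described here.

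Across the 35 genes measured, Hmox1 and Gclc rose and Gpx3, Txnip, Sod3 and Tkt fell in macroH2A1.1 siRNA myotubes, once the samples were compared within replicate numbers. These 6 are a haem-degrading enzyme, a subunit of the enzyme that starts glutathione synthesis, a secreted glutathione peroxidase, the thioredoxin inhibitor, the extracellular dismutase and a pentose phosphate enzyme. Their differences lay between -0.81 and 0.61 on the log2 scale, and each had the same sign in all 4 pairs.

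The 6 of 35 genes called with the block stand beside 7.94% of all 13824 genes called in the same fit (4.07% higher and 3.87% lower, limma adjusted p under 0.05). Without pairing, limma called 0 of the 35, and called 3 genes in all (0.0217%). At an unadjusted p under 0.05 without pairing were 5 of the 35, near the share of all genes (1665 of 13824, or 12%). With the block, 14 of the 35 had an unadjusted p under 0.05, against 27.8% of all genes. The groups overlapped in all 35 genes, while 7.95% of all genes had groups that did not overlap. The median difference over the 35 genes was 0.080, with 23 above 0 and 12 below, and over all genes it was -9.02e-05. Without control siRNA replicate 1 the median of the 35 was 0.0178. In 14 genes the macroH2A1.1 siRNA sample was the higher in all 4 pairs and in 6 it was the lower in all 4, against 19.4% and 18.2% of all genes.

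The calls rest on all 4 pairs: leaving out pair 1, 2 or 3 left none of the 35 genes past the threshold, and leaving out pair 4 left Hmox1 and Sod3. Without the filter on dim probes no gene at all passed with the block. With the dark corner left out the same 6 genes passed, beside 8.93% of all genes. All 6 differences kept their sign in these settings.

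**Figure D1:**
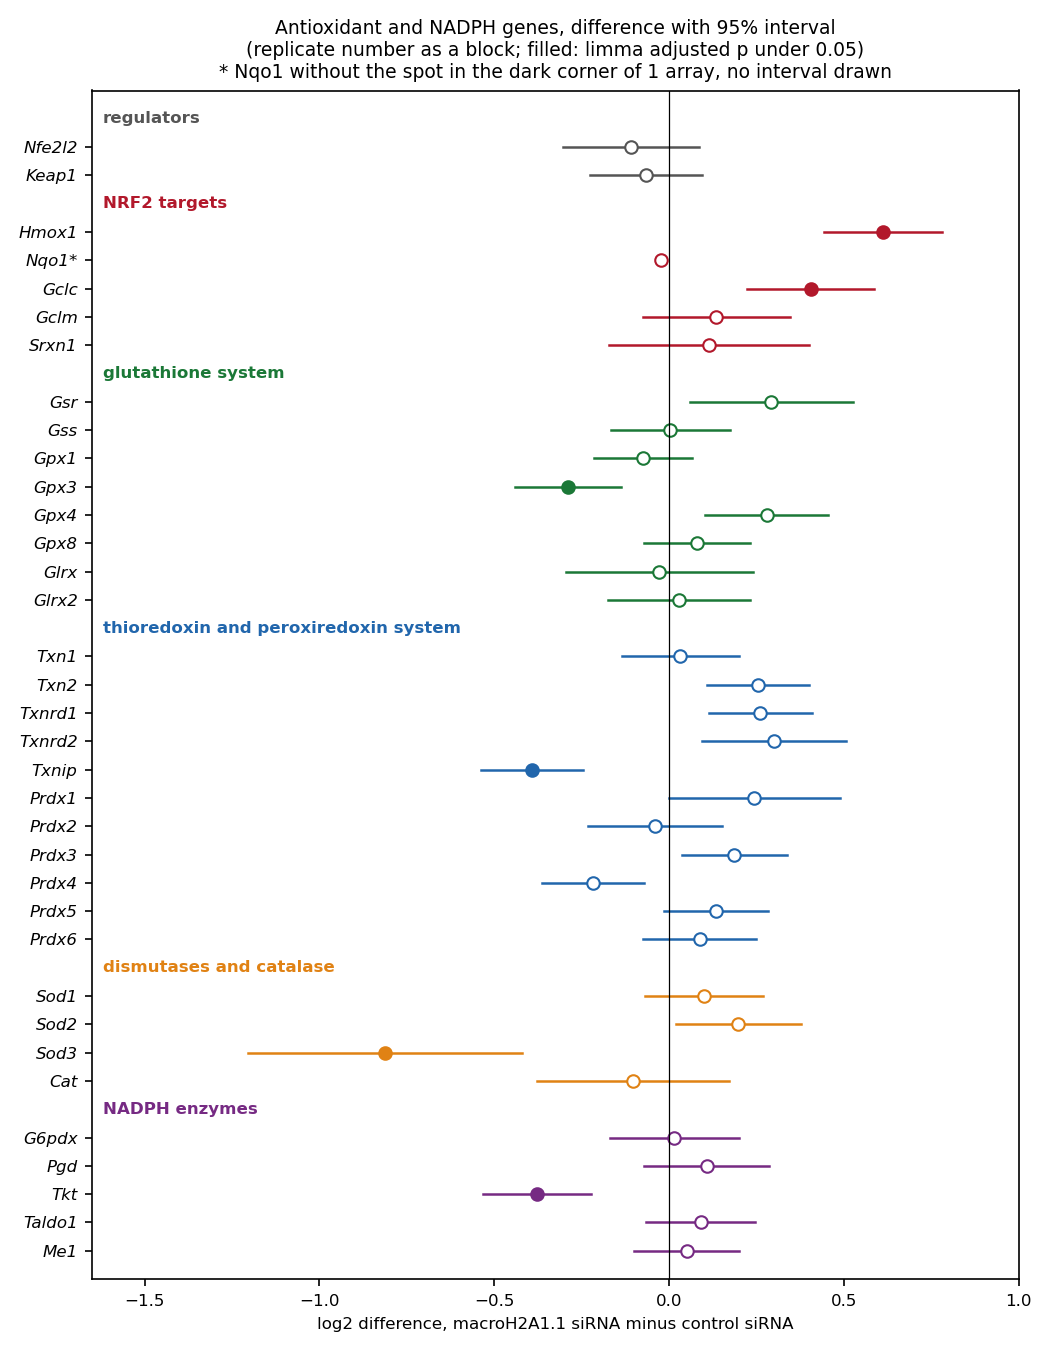
Log2 difference, macroH2A1.1 siRNA minus control siRNA, of each gene with its 95% interval from the fit with the replicate number as a block (n = 4 pairs), grouped by role; filled points passed the limma threshold. Most genes lie close to 0, Hmox1 (0.61) and Gclc (0.41) stand to the right, and Sod3 (-0.81) stands farthest to the left. Nqo1, with an asterisk at its name, is the exception without an interval. It is drawn at -0.02, its value without the spot in the dark corner.

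The regulators themselves did not pass the test. Nfe2l2 read 4.23, 4.58, 3.95 and 4.02 in macroH2A1.1 siRNA samples and 4.45, 4.46, 4.11 and 4.20 in control siRNA samples. Its difference was -0.11 (95% interval with the block -0.30 to 0.09, limma adjusted p = 0.41), with the macroH2A1.1 siRNA sample the lower in 3 pairs and the higher in pair 2. Keap1, the adaptor that targets NRF2 for degradation, read 2.57, 2.52, 2.51 and 2.18 in macroH2A1.1 siRNA samples and 2.60, 2.66, 2.45 and 2.33 in control siRNA samples, a difference of -0.07 (interval -0.23 to 0.09). The groups overlapped in both genes. These are transcript levels, and NRF2 activity is set largely by the stability of the protein, which was not measured.

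Among the 5 measured genes listed here as NRF2 targets, 2 rose and none fell, beside 4.07% of all genes called higher and 3.87% lower. The median difference was 0.13. None of the 21 further partners and targets of NRF2 described below passed. Hmox1 encodes haem oxygenase 1, which breaks haem into biliverdin, iron and carbon monoxide. It read 3.28, 4.01, 4.03 and 2.98 in macroH2A1.1 siRNA samples, against 2.72, 3.25, 3.40 and 2.49 in control siRNA samples. The groups overlapped because both spread widely (SD 0.53 and 0.43), but within each pair the macroH2A1.1 siRNA sample was the higher, by 0.56, 0.76, 0.63 and 0.49. The difference was 0.61, a 1.53-fold ratio (SE with the block 0.07, limma adjusted p = 0.017, against 0.47 without pairing). This probe lies at chr8:77624207-77624266 (mm9, plus strand), and a second Hmox1 probe at chr8:77620797-77620856 read 0.38. Tested over probes with the block, the second did not pass (limma adjusted p = 0.17, against 0.028 for the first).

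Gclc, the catalytic subunit of glutamate-cysteine ligase, which limits the rate of glutathione synthesis, read 1.89, 1.67, 1.70 and 1.41 in macroH2A1.1 siRNA samples, against 1.31, 1.29, 1.45 and 0.998 in control siRNA samples. Only macroH2A1.1 siRNA replicate 4 fell inside the control range. The difference was 0.41 (1.32-fold, SE with the block 0.07, limma adjusted p = 0.037, against 0.29 without pairing), and its probe lies at chr9:77641296-77641355 (mm9, plus strand). Gclm, the modifier subunit of the same enzyme, had a difference of 0.13 (interval with the block -0.08 to 0.35, adjusted p = 0.35) and was the higher in 3 of 4 pairs. Whether Gclc and Gclm differ from each other in their response was not tested.

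Srxn1 encodes sulfiredoxin, which repairs over-oxidised peroxiredoxins. It read 2.36, 3.40, 2.68 and 2.50 in macroH2A1.1 siRNA samples and 2.35, 2.93, 2.53 and 2.68 in control siRNA samples. The difference of 0.12 did not pass (interval with the block -0.17 to 0.40) and turned to -0.11 without macroH2A1.1 siRNA replicate 2. Slc7a11, the cystine transporter, was well above background on 3 macroH2A1.1 siRNA and 3 control siRNA arrays and did not meet the filter. It read -3.06, -2.13, -3.32 and -5.27 in macroH2A1.1 siRNA samples and -3.38, -2.47, -3.14 and -5.13 in control siRNA samples, and replicate 4 was the dimmest of each group.

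Nqo1, a quinone reductase and a standard readout of NRF2, read -1.44, -6.33, -0.91 and -1.16 in macroH2A1.1 siRNA samples and -1.58, -0.76, -0.92 and -0.95 in control siRNA samples. The value of -6.33 is the spot in the dark corner, at row 15 and column 162, where the raw signal of 16.2 was under the local background of 20.0. With that spot the difference was -1.41 (SE with the block 1.02, limma adjusted p = 0.42). Without the corner it was -0.02 in the fit with the block (SE 0.10, adjusted p = 0.91) and -0.12 without pairing. The remaining 3 pairs differed by 0.14, 0.01 and -0.21, so the lower mean rested on that 1 spot.

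**Figure D2:**
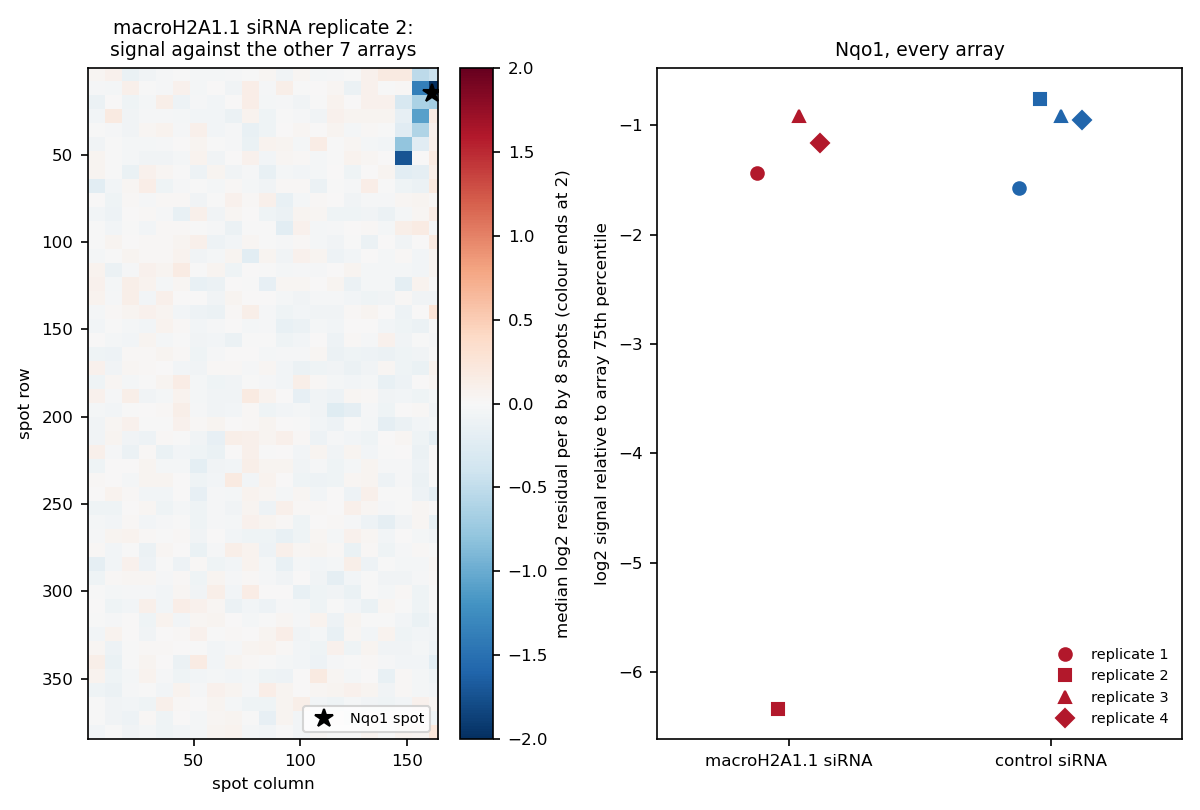
Left, the array of macroH2A1.1 siRNA replicate 2 drawn by spot row and column, with colour for the median log2 residual against the other 7 arrays in blocks of 8 by 8 spots and a star for the Nqo1 spot. Right, Nqo1 on every array, as log2 signal with 0 at that array's 75th percentile, macroH2A1.1 siRNA samples left and control siRNA samples right; 1 value at -6.33 stands below the other 7, which lie between -1.58 and -0.76.

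In the glutathione system, 1 of the 8 genes measured fell and none rose, beside 7.94% of all genes called in either direction. The median difference was 0.016. Gpx3 encodes the secreted glutathione peroxidase found in plasma. It read 0.94, 0.47, 0.67 and 0.87 in macroH2A1.1 siRNA samples, against 1.33, 0.79, 0.87 and 1.11 in control siRNA samples. The groups overlapped, and every macroH2A1.1 siRNA sample was below its paired control, by -0.39, -0.32, -0.21 and -0.24. The difference was -0.29 (a ratio of 0.818, SE with the block 0.06), and its limma adjusted p of 0.0495 lies at the edge of the threshold (0.51 without pairing). The probe lies at chr11:54723436-54723495 (mm9, plus strand).

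Gpx4, the peroxidase that reduces lipid hydroperoxides in membranes, read 6.83, 6.90, 7.09 and 6.99 in macroH2A1.1 siRNA samples and 6.56, 6.64, 6.64 and 6.85 in control siRNA samples. The macroH2A1.1 siRNA sample was the higher in all 4 pairs, and the difference of 0.28 (interval with the block 0.10 to 0.46) missed the threshold (limma adjusted p = 0.072). Gsr, the reductase that uses NADPH to regenerate glutathione, had the largest difference of this role in absolute size. It read 2.87, 3.04, 2.88 and 2.82 in macroH2A1.1 siRNA samples and 2.52, 2.70, 2.40 and 2.83 in control siRNA samples, a difference of 0.29 (adjusted p = 0.11 with the block), and its second probe read 0.27. Pair 4 differed by -0.01 in Gsr, whereas the other 3 pairs differed by 0.35 to 0.48.

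Gpx1, the main cytosolic peroxidase, read 5.11, 5.53, 5.23 and 5.31 in macroH2A1.1 siRNA samples and 5.13, 5.61, 5.28 and 5.46 in control siRNA samples. Its differences were small and negative in all 4 pairs, with a mean of -0.07 (interval with the block -0.21 to 0.07). Gss, which completes glutathione synthesis, differed by 0.0030, Gpx8 of the endoplasmic reticulum by 0.08 and Glrx, the cytosolic glutaredoxin, by -0.03. Glrx2, a mitochondrial glutaredoxin, was read by 2 kept probes that differed by 0.03 and 0.23 (limma adjusted p = 0.11 for the second, over probes with the block). A further probe gave no signal well above background. In control siRNA replicate 1 these probes read 9.74, 2.95 and -6.49 in that order. Which of them tracks the transcript was not tested. Gpx7 was well above background on 0 of the 8 arrays.

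In the thioredoxin and peroxiredoxin system, 1 of 11 genes fell and none rose, a share near the 7.94% of all genes called. The median difference was 0.14. Txnip binds reduced thioredoxin and blocks it, and it also restrains glucose uptake. It read 3.55, 2.86, 3.65 and 3.49 in macroH2A1.1 siRNA samples, against 3.83, 3.29, 4.08 and 3.90 in control siRNA samples. Replicate 2 was the lowest sample of each group, so the groups overlapped, and the pairs differed by -0.29, -0.44, -0.43 and -0.41. The difference was -0.39 (a ratio of 0.762, SE with the block 0.06, limma adjusted p = 0.027, against 0.54 without pairing). The probe lies at chr3:96365147-96365206 (mm9, plus strand), and a second probe at chr3:96364206-96364265 read -0.47. Both Txnip probes passed when each probe was tested alone (adjusted p = 0.045 and 0.034 over 24989 probes, of which 3.15% passed), as did 1 Hmox1 probe. The other 4 called genes did not pass in that test, with adjusted p between 0.052 and 0.079.

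The thioredoxins and their reductases had no member past the threshold. Txnrd1, the cytosolic reductase that recharges thioredoxin from NADPH, read 4.42, 4.51, 4.44 and 4.12 in macroH2A1.1 siRNA samples and 4.12, 4.28, 4.10 and 3.95 in control siRNA samples. It was the higher in all 4 pairs, by 0.17 to 0.34, and its difference of 0.26 (interval with the block 0.11 to 0.41) had a limma adjusted p of 0.057. Of its mitochondrial counterparts, Txn2 differed by 0.26 (adjusted p = 0.058) and Txnrd2 by 0.30 (adjusted p = 0.085), again higher in all 4 pairs each. The other kept Txn2 probe read 0.29. Cytosolic Txn1 differed by 0.03 (interval -0.14 to 0.20).

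The peroxiredoxins, which use thioredoxin to reduce peroxides, gave differences between -0.22 and 0.24, and none passed. Mitochondrial Prdx3 differed by 0.19 and Prdx5 by 0.14 (0.17 at its other probe), both the higher in all 4 pairs. Prdx1 differed by 0.24, and its other probe by 0.35 (adjusted p = 0.074 over probes with the block). Prdx4 of the endoplasmic reticulum had the opposite sign, at -0.22 (adjusted p = 0.080), and was the lower in all 4 pairs. Prdx2 differed by -0.04 and Prdx6 by 0.09, with 0.011 and 0.0046 at the other kept Prdx6 probes. Further probes of Prdx4 and Prdx6 gave no signal well above background on any array and were not compared.

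Among the dismutases and catalase, Sod3 alone passed, beside 7.94% of all genes called with the block. Sod3 encodes the extracellular superoxide dismutase, a secreted enzyme that binds to the matrix around cells. It read 2.32, 2.02, 3.40 and 2.65 in macroH2A1.1 siRNA samples, against 3.31, 2.75, 4.63 and 2.94 in control siRNA samples. Replicate 3 was the highest sample of each group, so the groups overlapped, and the pairs differed by -0.99, -0.73, -1.23 and -0.29. The difference of -0.81 (a ratio of 0.569, SE with the block 0.16) had a limma adjusted p of 0.042, against 0.53 without pairing. The probe lies at chr5:52760685-52760744 (mm9, plus strand).

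The intracellular dismutases did not pass. Sod1, the copper-zinc enzyme of the cytosol, read 6.15, 6.30, 6.22 and 6.22 in macroH2A1.1 siRNA samples and 5.88, 6.26, 6.15 and 6.20 in control siRNA samples, a difference of 0.10 (interval with the block -0.07 to 0.27). Sod2, the manganese enzyme of mitochondria, read 6.29, 6.36, 6.34 and 6.18 in macroH2A1.1 siRNA samples and 6.003, 6.04, 6.31 and 6.02 in control siRNA samples, a difference of 0.20 (limma adjusted p = 0.15 with the block). Both were the higher in all 4 pairs, by as little as 0.02 for Sod1 and 0.03 for Sod2. Catalase, which destroys hydrogen peroxide in peroxisomes, read 0.71, 0.61, 0.55 and 0.87 in macroH2A1.1 siRNA samples and 0.58, 0.96, 0.43 and 1.17 in control siRNA samples. Its pairs split in sign, and the difference was -0.10 (interval with the block -0.38 to 0.17), with -0.07 at its other probe.

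**Figure D3:**
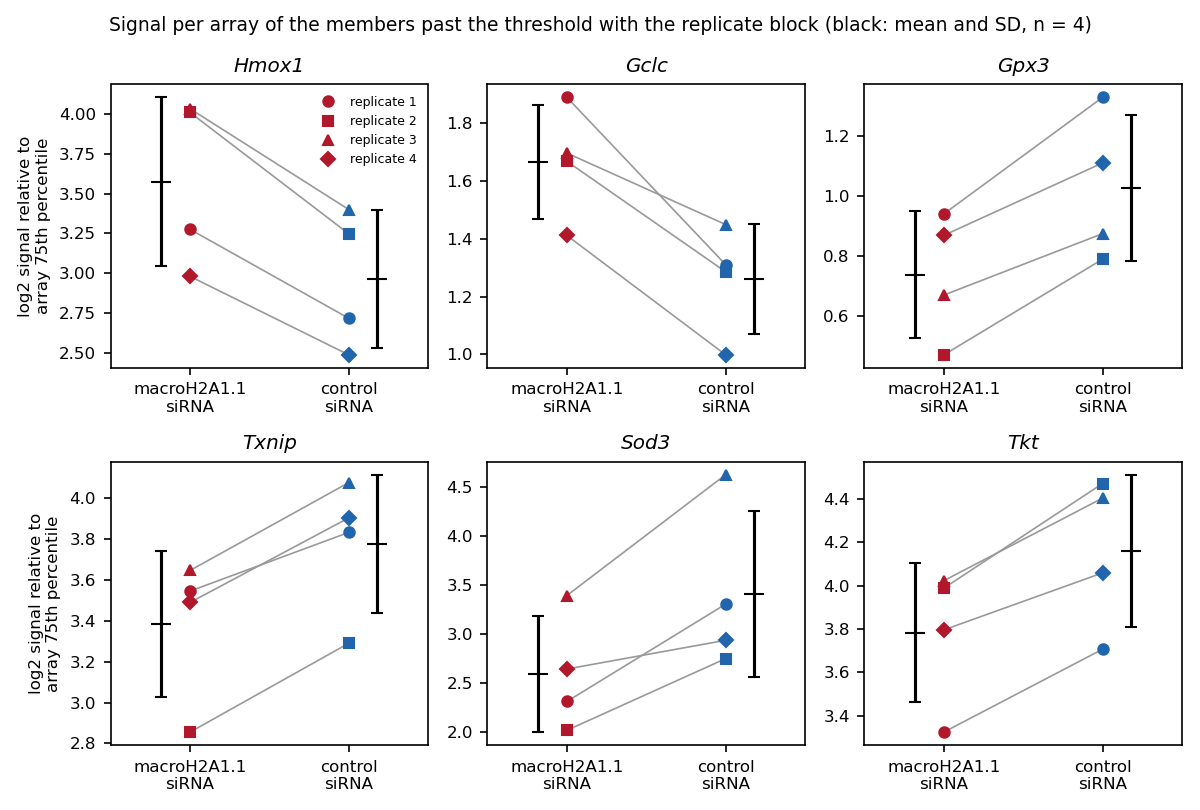
Log2 signal (0 is each array's 75th percentile) of Hmox1, Gclc, Gpx3, Txnip, Sod3 and Tkt on every array, macroH2A1.1 siRNA samples left and control siRNA samples right, with lines joining samples of the same replicate number and black marks for the mean and SD (n = 4). All 4 lines of each gene slope the same way, although the groups overlap in all 6 genes; Sod3 spans 2.02 to 3.40 in macroH2A1.1 siRNA samples and 2.75 to 4.63 in control siRNA samples.

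Of the 5 enzymes of NADPH supply and the pentose phosphate pathway, 1 fell, beside 7.94% of all genes called with the block. Tkt encodes transketolase, an enzyme of the non-oxidative branch of the pentose phosphate pathway that returns pentose phosphates to glycolysis. It read 3.32, 3.99, 4.02 and 3.80 in macroH2A1.1 siRNA samples, against 3.71, 4.47, 4.40 and 4.06 in control siRNA samples. The groups overlapped, and the pairs differed by -0.38, -0.48, -0.38 and -0.26. The difference was -0.38 (a ratio of 0.770, SE with the block 0.06, limma adjusted p = 0.032, against 0.54 without pairing), from a probe at chr14:31386641-31386700 (mm9, plus strand).

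The other 4 did not pass. G6pdx, glucose-6-phosphate dehydrogenase, the first step of the oxidative branch, read 3.24, 3.95, 3.58 and 3.72 in macroH2A1.1 siRNA samples and 3.34, 3.74, 3.67 and 3.69 in control siRNA samples. Its difference of 0.015 had an interval with the block of -0.17 to 0.20. Whether G6pdx and Tkt differ from each other in their response was not tested. Me1, cytosolic malic enzyme, read 3.82, 4.17, 3.91 and 3.82 in macroH2A1.1 siRNA samples and 3.71, 4.22, 3.79 and 3.81 in control siRNA samples, a difference of 0.05 (interval -0.10 to 0.20), and its other probes read 0.05 and 0.20. Pgd, the second NADPH-forming step of the pathway, differed by 0.11, and Taldo1, transaldolase, which works beside transketolase and makes no NADPH itself, by 0.09. Both were slightly higher in all 4 pairs, with intervals of -0.07 to 0.29 for Pgd and -0.07 to 0.25 for Taldo1.

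**Figure D4:**
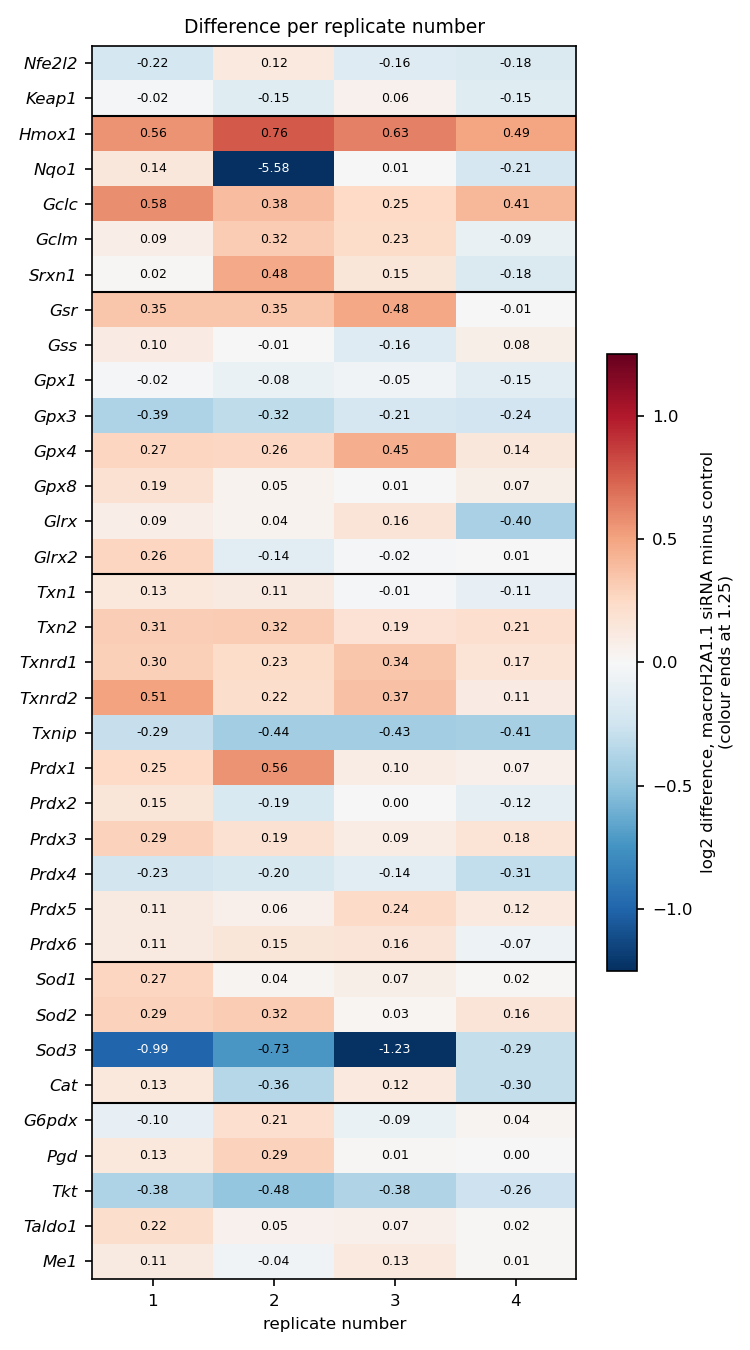
Log2 difference, macroH2A1.1 siRNA minus control siRNA, within each replicate number (columns) for the 35 genes measured (rows), coloured by sign and size. In 14 genes every column is above 0, among them Hmox1, Gclc, Gpx4, Txn2, Txnrd1 and Txnrd2. In 6 every column is below 0, namely Sod3, Txnip, Tkt, Gpx3, Prdx4 and Gpx1. The Nqo1 value of -5.58 in column 2 is the spot in the dark corner.

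Another 75 genes of the same pathways were described from lists drawn up by function, of which 69 were measured. With the block 3 rose and 3 fell, a share near the 7.94% of all genes called, and the median difference was -0.015. Without pairing limma called none of them, and 6 had an unadjusted p under 0.05, against 12% of all genes. None of 21 partners and further targets of NRF2 passed, with a median of -0.05, and 5 had an unadjusted p under 0.05 with the block, a smaller share than the 27.8% of all genes. In that list Bach1, the repressor that competes with NRF2 at antioxidant response elements, differed by -0.10, and Fth1, ferritin heavy chain, by -0.05. The closest to the threshold were Blvrb (-0.23, adjusted p = 0.064) and Ephx1 (-0.29, adjusted p = 0.086).

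Of 19 measured genes of thiol and methionine repair, Msra and Msrb2 rose and Txndc12 fell, beside 7.94% of all genes called. Msra and Msrb2 encode methionine sulfoxide reductases, which repair oxidised methionine with electrons from thioredoxin. Msra read 1.55, 1.83, 1.47 and 1.11 in macroH2A1.1 siRNA samples, against 0.86, 1.08, 0.85 and 0.69 in control siRNA samples, a difference of 0.62 (limma adjusted p = 0.018 with the block). Its groups did not overlap. Msrb2 read -0.22, -0.04, -1.27 and -0.25 in macroH2A1.1 siRNA samples, against -1.01, -1.23, -2.37 and -0.64 in control siRNA samples, a difference of 0.87 (adjusted p = 0.032). Txndc12, a thioredoxin-like protein of the endoplasmic reticulum, differed by -0.40 (adjusted p = 0.029), and Selenow, a selenoprotein of muscle, by -0.48 without passing (adjusted p = 0.063).

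In the list of metal and radical handling, 1 of 12 measured genes passed, a share near the 7.94% of all genes called. Mt2, a metallothionein, differed by -0.43 (limma adjusted p = 0.049 with the block), and its neighbour Mt1 by -0.16 (adjusted p = 0.20). Xdh, xanthine dehydrogenase, differed by 0.95 and missed the threshold (adjusted p = 0.053). With the dark corner left out its difference was unchanged at 0.95, and it passed (adjusted p = 0.046). Its signals were dim, from -4.18 to -1.32.

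Of 17 further genes of NADPH supply, Aldh1l1 rose and Mthfd2l fell, beside 7.94% of all genes called with the block. Aldh1l1 encodes the cytosolic formyltetrahydrofolate dehydrogenase, which yields NADPH. It read -0.68, 0.15, -0.94 and -1.29 in macroH2A1.1 siRNA samples, against -1.69, -1.27, -2.40 and -1.93 in control siRNA samples. Replicate 4 of the macroH2A1.1 siRNA group lay just below control siRNA replicate 2, so the groups overlapped, and all 4 pairs were higher. The difference was 1.14 (limma adjusted p = 0.021 with the block). Mthfd2l, a mitochondrial folate enzyme, differed by -0.39 (adjusted p = 0.026), with groups that did not overlap. Idh1 differed by 0.16 and Nnt, the mitochondrial transhydrogenase, by -0.04, and neither passed. Pgls, the lactonase between G6pdx and Pgd, read -2.35 with its spot in the dark corner and -0.04 with the corner left out.

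Other groups of genes moved with the knockdown, and their part in the results above was not tested. Of 10 myotube markers, 4 rose with the block (Ckm, Mylpf, Tnnc2 and Tnnt3), beside 4.07% of all genes called higher. The summed linear signal of the list, in units of the 75th percentile, was 1700 to 2543 in macroH2A1.1 siRNA samples. In control siRNA samples it was 1443 to 1942. Of 6 fibroblast markers, Postn (-1.01) and Col1a2 (-0.40) fell, beside 3.87% of all genes called lower. The sum over this list was 826 to 1158 in macroH2A1.1 siRNA samples and 929 to 1204 in control siRNA samples. Of 9 measured interferon response genes, Ifit1, Usp18, Oasl1, Rsad2 and Cxcl10 were well above background on 1 to 3 of the 4 control arrays. These met the filter through the macroH2A1.1 siRNA group, so no count, median or sum over the list is given. Of the 4 measured on all 8 arrays, Ifit3 rose by 2.88 (limma adjusted p = 0.030 with the block), and Isg15, Oasl2 and Irf7 differed by 2.02, 2.51 and 1.72 without passing (0.082 to 0.10).

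The cycling myoblast markers gave 4 measured genes of 6 (Pax7 and Myf5 not kept) with a median of -0.11, and none passed. Their sum was 3.37 to 18.6 in macroH2A1.1 siRNA samples and 3.55 to 16.4 in control siRNA samples. Among macrophage markers 5 of 6 were measured and none passed, with a sum of 19.1 to 25.6 in macroH2A1.1 siRNA samples and 21.6 to 24.3 in control siRNA samples. Ptprc, which marks all leukocytes, did not meet the filter, and Cd68 differed by 1.32 (adjusted p = 0.091 with the block). None of the 5 adipocyte markers met the filter.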

How the data were processed

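The authors' spot intensity values came from Agilent's Feature Extraction software (version 10.7.3.1, genome build mm9), per the file headers. RNA (500 ng a sample) was labelled with Cy3, per the labels' protocols. The processed intensity used here was deposited already background-subtracted, per the file headers. The deposited series values track log2 median signal (r 0.9977 to 0.9996) with equal medians (6.29). They are a log2 alternative whose background handling is not given in the sources used here.

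Each array's log2 processed intensity was set relative to its own 75th percentile. Control and outlier spots (143 to 236 per array) were left out and spots of 1 probe averaged. Of 55681 probes 33268 had a symbol, 27509 of them through RefSeq accessions (GRCm38.p6, names only). A probe was kept if it was well above background in every sample of a group, and a gene is its kept probe of highest mean. Exon or UTR positions were not used here, since no annotation of mm9 was given.

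The test was limma 3.58.1 under R 4.3.3 (two-sided, Benjamini-Hochberg over 13824 genes), without pairing as the stated design, and also within replicate numbers, entered as a fixed block. Numbers were taken as pairs where all 4 same-number correlations exceed 0.1, as they did. This check used the same 8 arrays and cannot show that paired samples shared a culture. "Rose" and "fell" refer to the fit with the block. The test was checked on simulated data with a pair effect built in, so that check cannot show that the replicate numbers are pairs. Its planted changes were larger in size than those of Gclc, Gpx3, Txnip and Tkt. Precision is limited by 4 arrays per group. The genes, lists and the rule for naming genes were chosen with earlier results of these data known. Values per array are given for genes called in either fit, the largest difference of each role, and a list of anchor genes. Of the other lists every gene called is named, with a few that were not. Columns outside these 8 samples numbered 0. Alternatives were background correction, scaling, filters, probe choice, variance model, slide position, pairing and each array left out. Leaving out the dark corner was added after seeing the data.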

Additional observations from a re-analysis of the deposited data

Results flagged for a closer look

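In 7 of 72 groups of 4 arrays checked (35 genes measured and Macroh2a1, in both siRNA groups), the highest or lowest array stood apart from the other 3 by Dixon's criterion. Chance gives about 1 such group in 20. In the macroH2A1.1 siRNA group these were Nqo1 in replicate 2 at -6.33, the spot in the dark corner, Keap1 in replicate 4 at 2.18, Gclm in replicate 4 at -1.94 and Glrx2 in replicate 1 at 10.005. In the control siRNA group they were Txn1 in replicate 2 at 6.20, Prdx3 in replicate 3 at 3.66 and Sod2 in replicate 3 at 6.31. None of the 6 genes called with the replicate block was among them.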

How the results depend on the processing

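The numbers were taken as pairs by the rule above, and the replicate block changed the calls. With the block limma called 1098 genes and 6 of the 35 described here, against 3 and 0 without the block. The block did not change the call of Macroh2a1. Without pairing, the count of genes was 1 with median centring or with each probe alone, 5 with the dark corner left out or with probes well above background on all 8 arrays, 7 with array weights or the slide column as a random block, 10 with the slide row as a block and 0 to 11 with 1 array left out. None of the 35 passed in any of these. With the block, the count of genes was 1896 with normexp background correction, 1720 on the authors' series values, 2050 with trended robust eBayes, 0 without the filter on dim probes and 0 to 576 with 1 pair left out. Of the 35 genes, 12 passed with trended robust eBayes, 0 without the filter, 0 to 2 with 1 pair left out, and 3 probes with each probe alone. The count of genes was 0 without pair 1 or pair 3, 134 without pair 2 and 576 without pair 4. The other settings with the block gave 5 to 9 of the 35; Gpx3 passed in 6 of 10 settings that kept all pairs and each other called gene in 9 of 10. The median over the 35 lay between 0.0178 (without control siRNA replicate 1) and 0.1003 with 1 array left out. Macroh2a1 kept its sign and missed the threshold without pairing under median centring (-1.0027), without the filter (-0.9861) and with the mean of probes (-1.172), and in 7 of the 8 fits with 1 array left out, which gave -1.0565 to -0.9226; the fit without macroH2A1.1 siRNA replicate 4 passed.

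Differences near 0 changed sign in some settings; the cause was not tested. Gss gave -0.0212 with normexp, -0.0136 with median centring and -0.025 on the series values, Glrx 0.0098 with array weights, Glrx2 -0.0211 with quantile scaling, Txn1 -0.005 on the series values and -0.0137 with array weights, and G6pdx -0.0098 with normexp and -0.0014 with median centring. With 1 array left out the ranges were -0.1262 to 0.0226 for Keap1, -0.1072 to 0.239 for Srxn1, -0.0529 to 0.1039 for Gss, -0.1542 to 0.0066 for Gpx1, -0.1298 to 0.1016 for Glrx, -0.0762 to 0.0784 for Glrx2 and -0.1123 to 0.1494 for Txn1. They were -0.0923 to 0.065 for Prdx2, -0.0315 to 0.1814 for Prdx6, -0.2207 to 0.0247 for Cat, -0.0939 to 0.1428 for G6pdx and -0.0294 to 0.1625 for Me1. Slc7a11 and Gpx7 lie too close to background for a level to be compared.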
